A study of Mus musculus with 2 samples.

Results

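The Mir106a-363 cluster is a group of 6 microRNA genes, Mir106a, Mir18b, Mir20b, Mir19b-2, Mir92-2 and Mir363, that lie side by side on mouse chromosome X. They were taken as the rows with these symbols, 6 of the 1973 microRNA loci in the count tables, and the choice used no measured value. The tables come from hindbrain, from which cerebellum, pons and medulla develop, dissected at embryonic day 14.5 from mice of strain B6NCrl. There is 1 group with 2 libraries of RNA under 30 nucleotides, replicate 1 from tissue collected on 24 July 2014 and replicate 2 from tissue collected on 30 July 2014. The labels name no mutation, transgene or treatment. They describe each sample as a single hindbrain and also give its sex as pooled, and both carry the same donor label. The tissues were collected on different days and so are separate, but the labels do not settle how many animals each holds. SDs and tests below measure only the spread between these libraries, part or all of which may be technical. Without a second group, no condition could be compared.

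The genes of the cluster are transcribed together, and each hairpin is cut from the common transcript and trimmed to a short mature RNA that pairs with messenger RNAs mainly through its seed, bases 2 to 8. The cluster is a paralog of Mir17-92, which is required for mouse development and promotes proliferation and survival of progenitor cells, and of Mir106b-25, which lies inside Mcm7, a gene of the DNA replication helicase. Shared targets of their main seed include the cell cycle inhibitor Cdkn1a and the proapoptotic gene Bcl2l11. Mice that lack Mir106a-363 alone are viable, and the neighbouring noncoding gene Kis2 is a site where retroviruses insert in mouse T-cell leukaemia.

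The mature sequences show what the counts can and cannot separate, so they are given first. RefSeq (GRCm38.p6) lists 11 for the 6 members, 21 to 24 bases long. Those of the arms that carry the family seeds are printed 5′ to 3′ with the seed in capitals, each followed by the closest paralogs of the other clusters.
miR-106a-5p (Mir106a): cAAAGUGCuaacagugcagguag
miR-20b-5p (Mir20b): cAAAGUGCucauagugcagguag
miR-17-5p (Mir17): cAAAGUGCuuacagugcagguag
miR-20a-5p (Mir20a): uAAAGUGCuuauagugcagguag
miR-18b-5p (Mir18b): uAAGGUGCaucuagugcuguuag
miR-18a-5p (Mir18): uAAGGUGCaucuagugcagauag
miR-19b-3p (Mir19b-2 and Mir19b-1): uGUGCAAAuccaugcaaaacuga
miR-19a-3p (Mir19a): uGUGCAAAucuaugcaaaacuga
miR-92a-3p (Mir92-2 and Mir92-1): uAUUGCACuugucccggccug
miR-363-3p (Mir363): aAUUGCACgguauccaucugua
miR-25-3p (Mir25): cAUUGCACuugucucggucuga

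Mir106a and Mir20b have the seed of miR-17, Mir18b that of miR-18a, Mir19b-2 that of miR-19, and Mir92-2 and Mir363 that of miR-92a and miR-25. Counted from the 5′ end, miR-106a-5p differs from miR-17-5p by the single substitution A10U. miR-20b-5p differs from miR-20a-5p by C1U and C10U, and miR-18b-5p from miR-18a-5p by U18A and U20A. miR-19b-3p and miR-92a-3p are identical in the cluster and in Mir17-92. Among 2202 annotated mouse microRNA hairpins, these were the only mature sequences of the 6 members that lay whole in another hairpin, so 2 members share a product and 4 do not. The other arms of the shared pair tell the loci apart.
miR-19b-2-5p (Mir19b-2): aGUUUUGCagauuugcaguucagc
miR-19b-1-5p (Mir19b-1): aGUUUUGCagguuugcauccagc
miR-92a-2-5p (Mir92-2): aGGUGGGGauugguggcauuac
miR-92a-1-5p (Mir92-1): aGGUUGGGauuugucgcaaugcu

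Multimapping reads stand in a row of their own in the tables, 33.9% of the reads of replicate 1 and 34.3% of those of replicate 2, and are assigned to no locus. The counts of Mir19b-2 and Mir92-2 therefore leave out any read that fits both copies of the shared arm, and their levels are not those of miR-19b-3p and miR-92a-3p in the tissue. Each row pools both arms of its hairpin.

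The 6 hairpins span 875 bases of chromosome X on the minus strand, from 52741693 to 52742567 (GRCm38, the mm10 build of the files), with gaps of 46 to 138 bases. In the direction of transcription Mir106a (ENSMUSG00000065456.1, 52742503 to 52742567) comes first, then Mir18b (ENSMUSG00000077111.2, 52742331 to 52742413) and Mir20b (ENSMUSG00000076041.1, 52742113 to 52742192). Mir19b-2 (ENSMUSG00000065473.1, 52741983 to 52742066), Mir92-2 (ENSMUSG00000065613.1, 52741838 to 52741928) and Mir363 (ENSMUSG00000070106.1, 52741693 to 52741767) follow. The Mir106a hairpin overlaps the annotated 3′ end of Kis2 by 5 bases on the same strand. The other hairpins overlap no annotated gene and are intergenic in GENCODE M21. The nearest protein-coding genes are Ccdc160, 48.6 kb away on one side, and the glypican gene Gpc3, 128 kb away on the other.

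The libraries held 5826676 and 6667238 gene-strand counts on microRNA loci, and levels are given as CPM, the count of a locus per 1000000 of these. Because mature microRNAs differ little in length, CPM was not divided by length, and CPM of different loci also carries sequence bias of small RNA library preparation, which was not measured here. Intervals and floors cover counting error only, since no molecular identifiers were counted, and the limit that a count of 0 allows, 3 counts, was 0.515 CPM for replicate 1 and 0.450 for replicate 2. All 7 hindbrain and neural marker loci, among them Mir10a, Mir10b and Mir137, were detected, with mean levels from 516 to 96400 CPM. The list was chosen with earlier results known, so its detection is no test. Neural loci outside it varied, with 5665 and 7626 counts at Mir128-2 but 44 and 53 at Mir124a-1. Mir124a-2 had 19 and 20 counts, Mir9-2 had 9 and 10, and Mir124a-3 had 5 and 8. Mir124a and Mir9 are multi-copy, and any read that fits several loci is left out of these counts. They are therefore not the levels of miR-124 and miR-9 in the tissue. Markers of other cell types were also present, with Mir126a of endothelium at 31783 and 36687 CPM, the red cell loci Mir451a and Mir144 at 261 and 373 CPM together, Mir223 of myeloid cells at 194 and 208 CPM, and Mir206 of muscle and Mir122 of liver under 20 CPM. Of the 9 loci listed as early embryonic, 8 were matched by symbol and 4, Mir302a to Mir302d, were detected. The 8 summed to 1016 and 944 CPM, and Mir367 had 0 counts in both libraries. The symbol not matched was Mir292a. Loci of similar name outside the list also had counts, 30 and 17 at Mir292, 60 and 44 at Mir293, 44 and 63 at Mir294 and 4 and 7 at Mir291b.

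Each library had at least 10 counts for every one of the 6 members, the minimum used here for detection, and 3 members lay above 130 CPM, the median of the 401 loci so detected. Together they held 0.107% of the microRNA counts of replicate 1, with a 95% Clopper-Pearson interval from 0.104 to 0.109, and 0.0819% of those of replicate 2 (0.0798 to 0.0841), a mean of 0.0943% ± 0.0175 (SD, n = 2). The share depended on the denominator. It was 0.0454% of all reads, and 0.212% with the 10 most abundant loci left out of the total. No member had a count on the opposite strand in either library.

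Mir363, the last hairpin of the cluster, was the most abundant member, with 2601 counts in replicate 1 and 2541 in replicate 2, or 446 and 381 CPM (mean 414 ± 46.2, SD, n = 2). Both libraries lay above those of every other member. It was 132nd in mean level among all loci, next to Mir501 at 416 CPM and Mir7-1 at 390.4 CPM, whose libraries lay within the range of the Mir363 libraries.

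Mir106a, which differs from the abundant Mir17 at a single base of its 5′ arm, had 1682 and 1255 counts, or 289 and 188 CPM (mean 238 ± 71.0, SD, n = 2). Mir20b, with the same seed, had 1349 and 1090 counts, or 232 and 163 CPM (mean 198 ± 48.1, SD, n = 2). Replicate 1 was the higher library for both. Within each library Mir106a lay above Mir20b, with exact Poisson 95% intervals of 275 to 303 against 219 to 244 CPM in replicate 1 and 178 to 199 against 154 to 173 CPM in replicate 2. Across libraries their ranges overlapped.

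Mir92-2 had 281 and 288 counts, or 48.2 and 43.2 CPM (mean 45.7 ± 3.56, SD, n = 2), without reads shared with Mir92-1. Mir18b had 293 and 272 counts, or 50.3 and 40.8 CPM (mean 45.5 ± 6.71, SD, n = 2). These 2 members overlapped each other, and both lay below Mir20b in every library, with a 4.32-fold difference of means between Mir20b and Mir92-2.

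Mir19b-2 had the lowest counts, 11 and 17, or 1.89 CPM (exact Poisson 95% interval 0.942 to 3.38) and 2.55 CPM (1.49 to 4.08). Its mean of 2.22 ± 0.468 CPM (SD, n = 2), without reads shared with Mir19b-1, was 186-fold below that of Mir363. The longest run of bases its hairpin shared with another was 25 bases, with Mir19b-1. That paralog had 7.21 and 6.90 CPM and was likewise the lowest locus of its cluster.

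**Figure D1:**
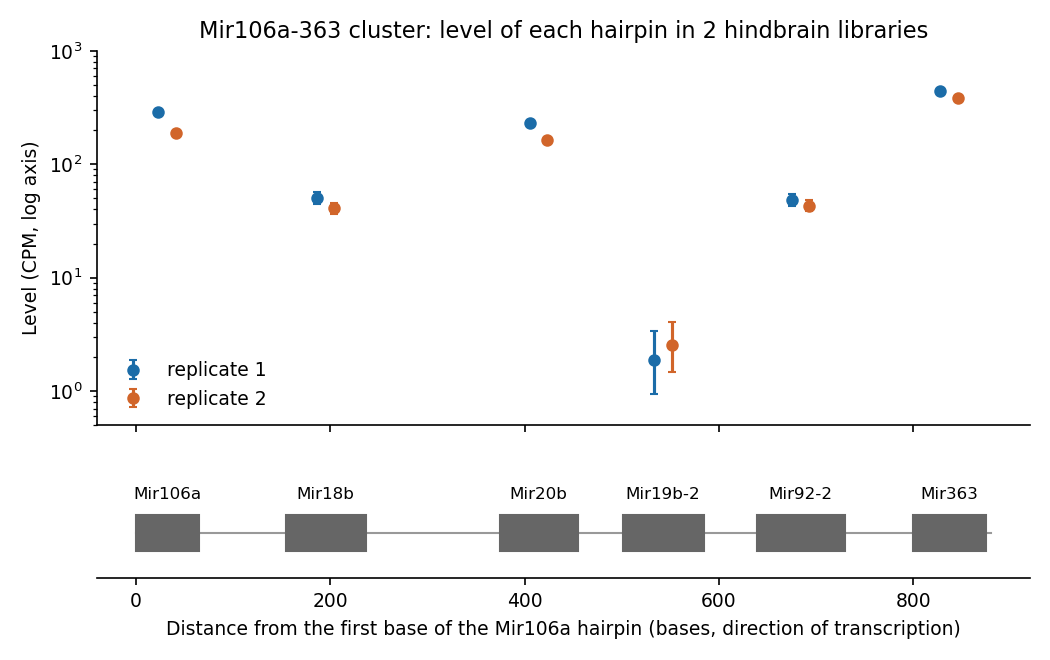
Level of each hairpin (CPM, log axis) against its distance in bases from the first base of Mir106a, for replicate 1 and replicate 2, with exact Poisson 95% intervals; points of each library are set slightly to either side of the middle of the hairpin, and the grey boxes below are the 6 hairpins to scale. The counted levels do not follow the order along the transcript: Mir363, the last hairpin, is highest at 446 and 381 CPM, and Mir19b-2, in the middle, is lowest at 1.89 and 2.55 CPM. Mir19b-2 and Mir92-2 are drawn without reads that fit both copies of their shared arm, so their places are not those of the mature products.

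Within the cluster, Mir363 made up 41.8% of the counts of replicate 1, with a Clopper-Pearson interval from 40.6 to 43.1, and 46.5% of those of replicate 2 (45.2 to 47.8). Mir106a made up 27.1% (25.95 to 28.2) and 22.97% (21.9 to 24.1), and Mir20b 21.7% (20.7 to 22.7) and 19.95% (18.9 to 21.04). These intervals did not overlap between libraries for Mir363 and Mir106a, and overlapped for Mir20b. Mir18b, with 4.71% and 4.98%, Mir92-2, with 4.52% and 5.27%, and Mir19b-2, with 0.177% and 0.311%, made up the rest. These are shares of the reads placed at 1 locus. Reads of miR-92a-3p and miR-19b-3p that fit both copies are left out, so the shares are not the composition of the mature products.

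The loci of the sister cluster ranked differently. In Mir17-92, which lies in the noncoding host gene Mir17hg on chromosome 14, Mir17 held 59.1% and 57.3% of the counts, Mir20a 21.1% and 20.3% and Mir18 16.6% and 18.6%. The Mir106a position was thus the leading one in Mir17-92 and, after Mir363, in the chromosome X cluster. The Mir18 position held 16.6% to 18.6% of Mir17-92 and under 5% of the cluster. In both clusters the loci of the 19b position had under 0.5% of the counts, which leave out reads of miR-19b-3p that fit both copies. Mir17-92 has no hairpin at the position of Mir363.

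Each of the 5 members with a partner at the same position in Mir17-92 was lower than that partner in both libraries. Mir17-92 had 24.7 times the counts of Mir106a-363 in replicate 1 (exact 95% interval 24.1 to 25.4) and 27.9 times in replicate 2 (27.2 to 28.7). Over the 3 pairs that share no mature sequence, Mir106a, Mir18b and Mir20b against Mir17, Mir18 and Mir20a, the ratio was 44.7 (43.2 to 46.3) and 56.02 (53.9 to 58.2), a mean of 50.4 against 26.3 for the whole clusters. These pairs also leave out Mir363, which has no partner and held 41.8% and 46.5% of the counts of the cluster. The higher ratio is thus not that of leaving out shared sequences alone. Mir106b-25 had 13.01 times (12.7 to 13.3) and 15.2 times (14.8 to 15.6) the counts of the cluster from 3 hairpins. Of the counts of the 3 clusters together, Mir106a-363 gave 2.58% in replicate 1 (2.52 to 2.65) and 2.27% in replicate 2 (2.21 to 2.33).

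Mir17, the founding member of the family, stood at 15581 and 13108 CPM, 53.98 times Mir106a in replicate 1 (51.4 to 56.7) and 69.6 times in replicate 2 (65.9 to 73.7). Mir106a counts thus equalled 1.85% and 1.44% of those of Mir17. Whether reads of miR-17-5p with an error at the base that separates it from miR-106a-5p were counted at Mir106a was not tested, since the tables hold no reads.

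Mir18 had 4382 and 4244 CPM, which was 87.2 times Mir18b in replicate 1 (77.7 to 98.1) and 104.04 times in replicate 2 (92.3 to 117.7). Mir20a, with 5565 and 4636 CPM, exceeded Mir20b 24.04 times (22.8 to 25.4) and 28.4 times (26.7 to 30.2). The 3 pairs whose products differ in sequence therefore did not share 1 ratio, and their intervals did not overlap with each other in either library.

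Among the loci with a shared mature arm, Mir92-1 exceeded Mir92-2 16.7 times in replicate 1 (14.8 to 18.9) and 19.3 times in replicate 2 (17.1 to 21.8). Mir19b-1 exceeded Mir19b-2 3.82 times (1.93 to 8.22) and 2.71 times (1.52 to 5.03). These ratios describe only the reads that could be placed at 1 locus.

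Mir363 was the member nearest in level to the loci of its seed in the other clusters. Mir92-1 had 807 and 834 CPM and was 1.81 times Mir363 in replicate 1 (1.72 to 1.90) and 2.19 times in replicate 2 (2.09 to 2.29), with the reads of the shared miR-92a-3p left out. Mir25, the last hairpin of Mir106b-25, had 376 and 340.5 CPM, 0.842 times Mir363 (0.795 to 0.892) and 0.893 times (0.844 to 0.946). The Mir25 and Mir363 libraries did not overlap, with 381 CPM as the lower value of Mir363 and 376 CPM as the higher value of Mir25.

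**Figure D2:**
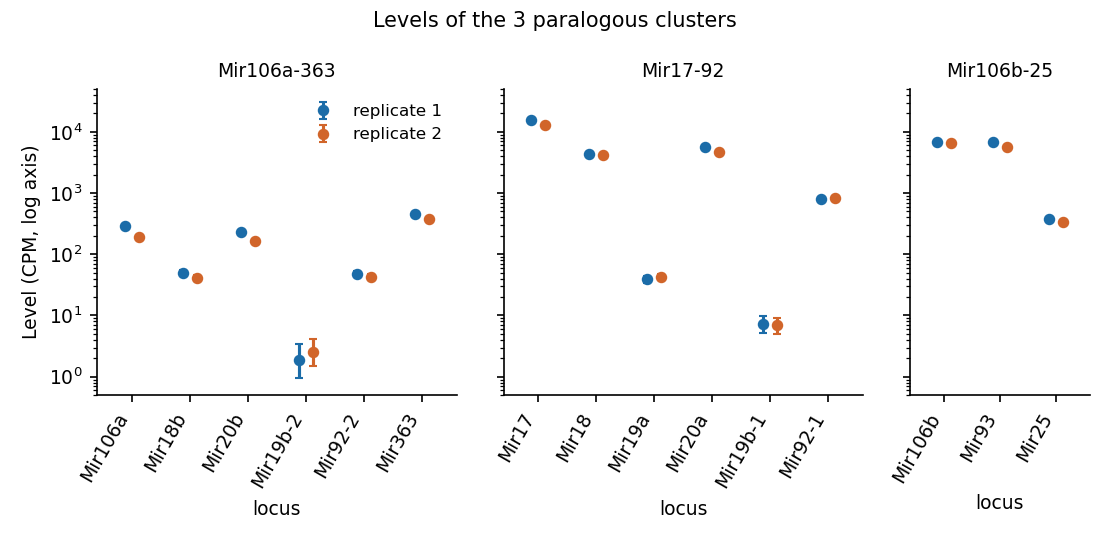
Levels (CPM, log axis) of the loci of the 3 paralogous clusters in their order along each transcript, for both libraries, with exact Poisson 95% intervals. Mir17 stands at 15581 and 13108 CPM and Mir106a, its partner, at 289 and 188 CPM, while Mir363 and Mir25 lie close together between 340.5 and 446 CPM.

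Grouped by seed, the contribution of the chromosome X cluster varied with the seed. In the group of miR-17, which is Mir106a, Mir20b, Mir17, Mir20a, Mir106b and Mir93, the summed level was 35168 and 30190 CPM. Mir106a and Mir20b gave 1.48% of these counts in replicate 1 (1.43 to 1.53) and 1.17% in replicate 2 (1.12 to 1.21). In the group of miR-18a, Mir18b gave 1.13% (1.01 to 1.27) of 4433 CPM and 0.952% (0.843 to 1.07) of 4285 CPM.

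The group of miR-92a and miR-25, formed by Mir92-2, Mir363, Mir92-1 and Mir25, had 1677 and 1599 CPM. Mir92-2 and Mir363 gave 29.5% of it in replicate 1 (28.6 to 30.4) and 26.5% in replicate 2 (25.7 to 27.4), mostly from Mir363. This share leaves out reads of miR-92a-3p that fit both copies, so it is a share of the reads placed at 1 locus and not of the seed in the tissue. In the group of miR-19, Mir19b-2 gave 3.89% (1.96 to 6.85) of 48.6 CPM and 4.84% (2.85 to 7.64) of 52.6 CPM, with the same limit. Grouped by the seeds of the opposite arms, Mir19b-2 gave 20.8% (10.8 to 34.1) of the 53 counts and 27.0% (16.6 to 39.7) of the 63 counts of Mir19b-2 and Mir19b-1. Mir106a and Mir20b gave 3.23% and 2.61% of the counts of Mir106a, Mir20b and Mir17. The rows pool both arms, so these are the same locus counts grouped in another way.

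**Figure D3:**
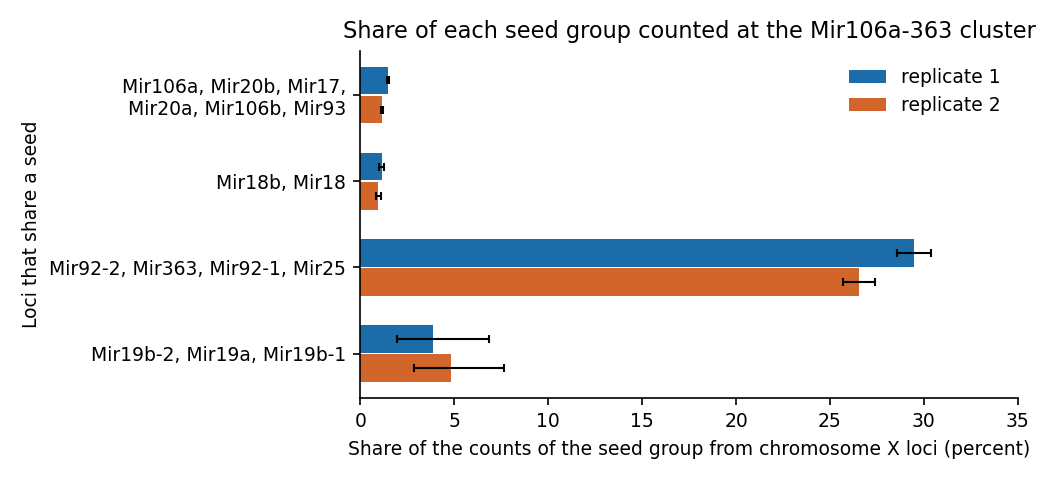
Share of the counts of each seed group (percent, Clopper-Pearson 95% intervals) that came from loci of the Mir106a-363 cluster, for both libraries. The group of Mir92-2, Mir363, Mir92-1 and Mir25 reaches 29.5% and 26.5%, and the other 3 groups drawn stay under 5%; groups by the seeds of the opposite arms are not drawn.

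The libraries differed in the cluster, with most members lower in replicate 2. The log2 ratio of replicate 2 over replicate 1 was taken after TMM scaling, with 0.5 added to each count, and each locus was tested against counting error with an exact two-sided binomial test adjusted by Benjamini-Hochberg over the 498 loci whose counts in both libraries came to at least 10. The test compares these libraries, not conditions, and the differences have no replicate check. Of the 6 members, 4 were lower in replicate 2, 0 were higher and 2 did not pass, where 15.1% of all loci tested were called lower and 17.5% higher. The share called was larger among deeper loci, with 24.8% lower among the 282 that had 100 counts or more in both libraries. The median log2 ratio of the members was -0.31, against 0.01 for all loci tested.

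Mir106a had the most negative ratio of the members, -0.66 (exact 95% interval -0.77 to -0.55, adjusted p = 7.76e-34), which is 1.58-fold higher in replicate 1. Mir20b followed with -0.54 (-0.66 to -0.43, adjusted p = 1.40e-19), or 1.46-fold higher in replicate 1. Both carry the seed of miR-17, and their intervals overlapped.

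Mir18b had -0.34 (exact 95% interval -0.59 to -0.10, adjusted p = 0.0158) and Mir363 -0.27 (-0.35 to -0.19, adjusted p = 1.32e-10). The interval of Mir363 lay above those of Mir106a and Mir20b, so with counting error alone the members did not differ between libraries by 1 common factor. These intervals leave out any other spread between libraries. Mir92-2, with -0.20 (-0.44 to 0.04), did not pass the binomial test (adjusted p = 0.232), nor did Mir19b-2, with 0.37 (-0.79 to 1.63, adjusted p = 0.769). The counts of the cluster summed gave -0.42 (-0.48 to -0.37).

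When the spread between the libraries over all loci was allowed for, with edgeR's exact test and a common dispersion equal to a coefficient of variation of 10.8%, none of the 6 members passed. That test called 1.41% of all loci in either direction. The dispersion came from the same libraries, so real differences between them enlarge it.

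Of the 9 paralogs, 6 were lower in replicate 2, 0 were higher and 3 did not pass the binomial test, with a median log2 ratio of -0.11, again beside 15.1% lower among all loci. Among loci with 100 counts or more in both libraries 24.8% were called lower, and the paralogs called are far deeper than that minimum. Mir17 had -0.29 (-0.31 to -0.28), Mir20a -0.31 (-0.33 to -0.28) and Mir93 -0.30 (-0.32 to -0.28). The intervals of Mir106a and Mir20b lay below those of these loci of the same seed. Mir18, Mir106b and Mir25 had -0.09, -0.11 and -0.19, and Mir92-1, Mir19a and Mir19b-1 did not pass, with 0.01, 0.09 and -0.11. The summed counts of Mir17-92 gave -0.25 (-0.26 to -0.24) and those of Mir106b-25 -0.20 (-0.21 to -0.19), both closer to 0 than those of Mir106a-363.

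**Figure D4:**
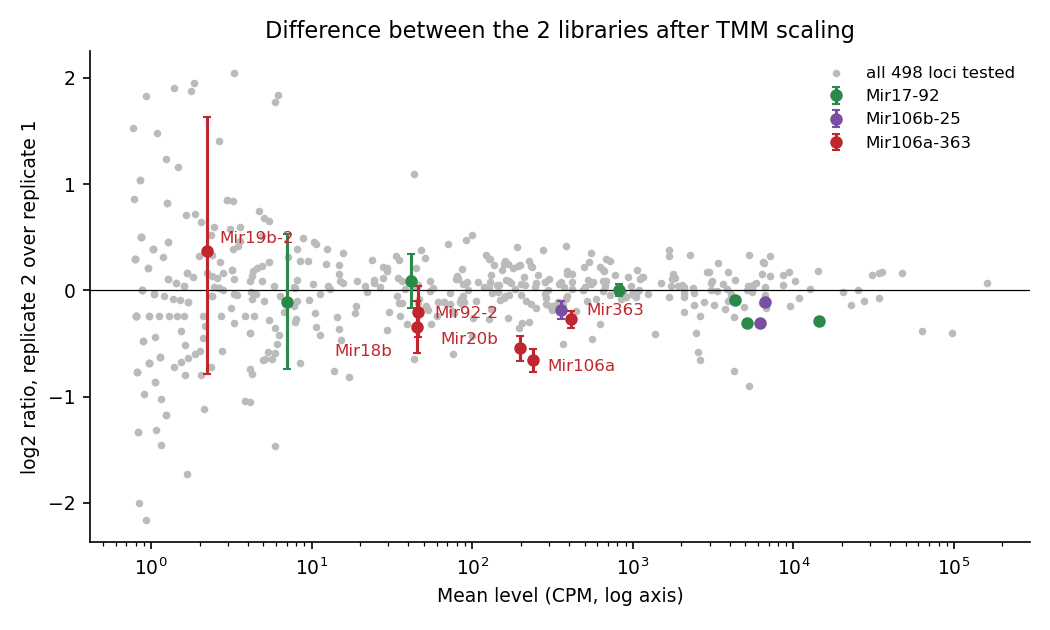
Log2 ratio of replicate 2 over replicate 1 after TMM scaling against mean level (CPM, log axis) for the 498 loci tested, with exact 95% intervals for the loci of the 3 clusters. Mir106a at -0.66 and Mir20b at -0.54 lie below the other members, and Mir19b-2, with 11 and 17 counts, has an interval from -0.79 to 1.63.

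Other values differed between the libraries as well. The collection day coincides with the replicate, so the difference between the days and that between the tissues cannot be told apart. Since the cluster lies on chromosome X and the label gives both sexes, the other loci of that chromosome are given beside it. Of the 40 other X loci tested, 8 were lower and 8 higher in replicate 2, with a median of 0.01. Over all loci tested, 15.1% were called lower and 17.5% higher. Of the 7 hindbrain and neural markers, 4 were called lower in replicate 2, with log2 ratios of -0.41 for Mir10a, -0.38 for Mir10b, -0.24 for Mir219a-2 and -0.10 for Mir9-3. The other 3, Mir137, Mir128-1 and Mir153, were called higher, with 0.09, 0.15 and 0.33. Among the 282 loci with 100 counts or more in both libraries, 24.8% were called lower and 28.4% higher. The 7 markers are far deeper than that minimum, and at such depth the binomial test also calls small differences. Mir126a of endothelium was higher, with 0.16, as were the red cell loci Mir144, with 1.09, and Mir451a, with 0.38. The early embryonic loci Mir302a, Mir302b and Mir302d were lower, with -0.14, -0.17 and -0.15. Mir302c, Mir223, Mir206 and Mir122 did not pass, nor did Mir295 of the early embryonic list, with 0.50 from 4 and 7 counts.

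Loci known from multiciliated cells and choroid plexus, picked after their values were seen and so given with no test, also had ratios below 0. Mir449a, Mir34c and Mir34b, which act in multiciliated cells, had log2 ratios of -0.90, -0.65 and -0.59. Mir1298, Mir1264 and Mir448, X-linked loci inside Htr2c, which encodes a serotonin receptor, had -0.76, -0.50 and -0.46, and Mir204, abundant in choroid plexus, had -0.40. The part of these in the values of the cluster was not tested.

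Outside the 3 clusters, the loci whose log2 ratio was nearest to the -0.42 of the summed cluster, among 269 with 100 counts or more in both libraries, were Mir155 at -0.43, Mir181b-2 at -0.41 and Mir10a at -0.41. Likeness here is the difference of 1 ratio over 2 libraries, 6 loci lay within 0.05 of the cluster, and 9 of the 269 lay below it. Those 9 were Mir449a, Mir1298, Mir34c, Mir205, Mir34b, Mir615, Mir1264, Mir448 and Mir155.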

How the data were processed

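The authors deposited raw read counts per microRNA locus for each library, with a column for both strands and 1 for each strand. The deposited file lists name mm10 and annotation release M4; aligner and counting program: not given in the sources used here. The strand column with the larger total, 98.0% and 97.8% of counts, was used. Rows naming no locus (unmapped, multimapping, outside loci) held 49.6% and 52.5% of all reads and stayed out of totals and tests. Symbols and positions came from GENCODE M21 (1894 of 1973 identifiers matched), sequences from RefSeq.

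TMM factors (0.985 and 1.01) and the common dispersion came from edgeR 4.0.16, and alternative size factors from DESeq2 1.42.0. With 1 library per replicate no residual degrees of freedom remain for edgeR's quasi-likelihood test, so an exact binomial test was used. Computations ran in Python 3.11.15, scipy 1.17.1 and R 4.3.3, and the test was checked on simulated data.

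The members were taken by symbol without use of a measured value. Earlier results of these data were known when they, the paralog pairs, the marker lists and the tests were chosen. Named are all members and paralogs, the neighbours of the highest member in level, the 3 loci nearest in ratio, and markers. Alternatives covered the denominator, strand, scaling, filter, pseudocount, test, shared products and each replicate left out.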

Additional observations from a re-analysis of the deposited data

How the results depend on the processing

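The share of the Mir106a-363 cluster in microRNA counts, 0.0943%, was 0.0454% with all reads as denominator and 0.212% without the 10 most abundant loci in the denominator, and it moved by less than 1 SD with counts of both strands and with only members that share no mature sequence. The libraries alone gave 0.0819% and 0.107%, a range that with 2 libraries says nothing of stability. The fold of Mir17-92 over Mir106a-363 was 50.4 in place of 26.3 over pairs without a shared mature sequence. Those pairs also leave out Mir363, the most abundant member, so the change is not that of leaving out shared sequences alone. The 4 members called lower in replicate 2 were 4 with library totals, DESeq2 size factors, upper quartile scaling, both strands, no filter and a summed count of at least 100, and 0 with edgeR's exact test with common dispersion. The share of all loci called lower in the first 6 of these ran from 9.02% without a filter and 11.8% with library totals to 27.0% at a summed count of at least 100. In none of the 36 alternative log2 ratios of single members did the sign turn, and 4 lost their call, all under that test. Other scalings shifted all log2 ratios by -0.02 to 0.04. Leaving out a replicate gives no ratio between them. Mir19b-2, with 11 and 17 counts, is the member whose depth limits its ratio most.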
